A study of Mus musculus with 20 samples.

Results

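The proteasome genes described here are all genes with a probe set of their own whose symbol begins with Psma, Psmb, Psmc, Psmd, Psme, Psmf or Psmg followed by a digit. There were 49 such genes among the 18193 genes with a probe set of 1 symbol, measured by 103 probe sets, and all 49 were found in RefSeq by gene identifier. The probe set with the highest mean signal stood for each gene. The genes comprised 31 standard subunits, 4 genes of the inducible immunoproteasome, 7 assembly chaperones, 3 other activators and inhibitors and 2 subunits known from other tissues. The remaining 2, Psmc3ip and Psme3ip1, match the naming rule but encode no subunit. The fifth immunoproteasome gene, Psme2, shared its only probe set with Psme2b in the annotation, so its level was not analysed here.

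Messenger RNA was measured on Affymetrix arrays in whole brains of C57BL/6J mice, with 1 brain on each of 20 arrays. The 4 groups of 5 were wild-type mice at 8 weeks (young wild type), wild-type mice at 2 years (aged wild type), alpha7-/- mice at 8 weeks (young alpha7-deficient) and alpha7-/- mice at 2 years (aged alpha7-deficient). The alpha7-/- mice lack alpha7, a subunit of nicotinic receptors for acetylcholine, which are cation channels. The sources used here give neither the making of the allele nor the sex of each animal. The comparisons ask what age and the missing subunit each do to brain transcripts, and whether age does the same in both genotypes.

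The proteasome degrades proteins tagged with ubiquitin. Its barrel, the 20S core, stacks outer rings of alpha subunits (Psma genes) on inner rings of beta subunits (Psmb genes), and the 19S regulator on the barrel's end binds, unfolds and feeds in the substrate with its ATPases (Psmc genes) and non-ATPase subunits (Psmd genes). Interferon induces alternative catalytic subunits that replace the standard ones in newly built cores: Psmb8 takes the place of Psmb5, Psmb9 that of Psmb6 and Psmb10 that of Psmb7, while Psme1 and Psme2 form the PA28 cap. This immunoproteasome cuts peptides suited to class I molecules, is most abundant in immune cells, and in brain is known mainly from microglia and from inflamed tissue.

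Signals were scaled by the authors so that the trimmed mean of every array was 250, and values below are log2 signals with their SD over 5 arrays. Median signal per array ranged from 61.3 to 78.9. Chrna7, which encodes the alpha7 subunit, read 8.77 ± 0.29 and 8.60 ± 0.10 (SD, n = 5) in young and aged wild type against 5.75 ± 0.47 and 5.47 ± 0.15 in young and aged alpha7-deficient brains, so every array matched its genotype label. Brain markers were present: 9 of the 9 neuronal genes with a probe set and 8 of the 8 astrocyte genes passed the filter on low signals. Among the young arrays, wild-type replicate 4 and alpha7-deficient replicate 5 had the highest ratios of 3' to 5' beta-actin signal (1.88 and 1.69 in log2), a sign of RNA quality. Aged alpha7-deficient replicates 1 and 2 and young wild-type replicate 5 carry animal numbers far from the rest and had the 3 lowest median signals. The counts of calls and the medians over the standard subunits are given with and without these sets. Among the other animals, number ranges separate the ages, so animal number and age cannot be told apart.

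Sequence upstream of 6 genes is shown because interferon and stress-response factors are known regulators of these families. These genes include 2 of the 3 catalytic pairs (Psmb8 with Psmb5 and Psmb9 with Psmb6) and 2 of the subunits that rose, Psmb3 and Psmd4. Psmb3 and Psmd4 are also the 2 standard subunits whose promoters matched the interferon regulatory factor motif given below, so they do not stand for the subunits that rose. Of the 49 genes, 41 had a promoter in the RefSeq table (build GRCm38.p6). Each line gives the 200 bases before the annotated start, read 5' to 3' on the gene's strand, and capitals mark matches to 1 of 3 motifs searched on both strands over 250 bases. The motifs were the interferon regulatory factor core GAAANNGAA, the gamma-activated site TTCNNNGAA, which reads the same on both strands, and the antioxidant response core TGACNNNGC.
Psmb8 (chr17:34197995-34198194, plus strand): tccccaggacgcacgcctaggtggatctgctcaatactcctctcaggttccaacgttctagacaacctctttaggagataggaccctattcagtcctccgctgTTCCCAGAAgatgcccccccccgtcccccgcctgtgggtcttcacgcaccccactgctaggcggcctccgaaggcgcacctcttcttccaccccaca
Psmb9 (chr17:34187331-34187530, minus strand): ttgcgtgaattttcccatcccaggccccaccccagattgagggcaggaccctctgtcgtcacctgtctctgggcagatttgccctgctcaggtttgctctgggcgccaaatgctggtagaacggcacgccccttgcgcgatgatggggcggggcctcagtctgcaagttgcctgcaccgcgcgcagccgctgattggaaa
Psmb5 (chr14:54617996-54618195, minus strand): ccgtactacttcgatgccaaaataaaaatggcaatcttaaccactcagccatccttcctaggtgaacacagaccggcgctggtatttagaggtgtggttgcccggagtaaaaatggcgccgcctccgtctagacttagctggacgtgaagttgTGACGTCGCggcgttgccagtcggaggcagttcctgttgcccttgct
Psmb6 (chr11:70525157-70525356, plus strand): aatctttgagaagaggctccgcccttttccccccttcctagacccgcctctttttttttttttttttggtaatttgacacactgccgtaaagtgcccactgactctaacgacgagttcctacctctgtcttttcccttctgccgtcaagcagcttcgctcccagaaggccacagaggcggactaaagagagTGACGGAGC
Psmb3 (chr11:97703234-97703433, plus strand): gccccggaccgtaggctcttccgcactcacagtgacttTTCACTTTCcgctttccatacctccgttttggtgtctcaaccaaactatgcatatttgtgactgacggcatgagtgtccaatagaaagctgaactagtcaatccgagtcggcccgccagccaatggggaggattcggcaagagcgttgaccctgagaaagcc
Psmd4 (chr3:95042615-95042814, minus strand): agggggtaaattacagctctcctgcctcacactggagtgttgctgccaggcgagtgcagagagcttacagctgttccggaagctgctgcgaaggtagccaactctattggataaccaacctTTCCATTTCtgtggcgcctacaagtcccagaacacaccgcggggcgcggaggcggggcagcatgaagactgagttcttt

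The inducible Psmb8 held a gamma-activated site whose first base lay at position -97, counted back from the start, and its replaced partner Psmb5 held an antioxidant response core at -47. Psmb6 held that core at -9, and Psmb9 matched none of the motifs in the window. Psmb3 and Psmd4 held the interferon regulatory factor core, at -162 and -79, both on the opposite strand. The promoters of Psma7, Psmb4, Psmd1, Psmd6, Psmg4 and Psme1, which also rose and are not shown, matched none of the motifs. Psmb2, which rose too, had no promoter in the RefSeq table. Across all 32851 promoters of the table, 7.13% held the interferon regulatory factor core, 7.02% the gamma-activated site and 10.2% the antioxidant core. Among the 27 promoters of standard subunits the counts were 2, 0 and 4, and among the 4 of immunoproteasome genes 0, 1 and 0. These are matches of letters, not binding sites. In the gene order of that annotation, Psmb9, Tap1, Psmb8 and Tap2 stand side by side in the class II region of the major histocompatibility complex, and Psme1 and Psme2 are separated by Emc9 alone.

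With age, averaged over genotypes, part of the proteasome transcripts rose, by 0.18 to 0.42 in log2 apart from the dim Psmb9, and none was called lower. In limma with adjustment over the 13389 genes tested, 11 of the 46 tested proteasome genes rose (Psma7, Psmb2, Psmb3, Psmb4, Psmb6, Psmb9, Psmd1, Psmd4, Psmd6, Psme1 and Psmg4) and 0 fell, where 9.12% of all genes tested were called higher and 8.42% lower. Psmb9 passed the filter on low signals only through its aged groups, and 10 of the 11 remain when it is set aside. At an unadjusted p under 0.05, 19 of the 46 passed, all of them higher. Of all 13389 genes tested 4296 passed there, 2218 of them higher. The other 3 genes, Psmb8, Psma8 and Psmb11, lay below the filter on low signals. Of the 31 standard subunits, 8 rose and 26 had a change above 0, with a median log2 change of 0.145 against 0.00306 over all genes, of which 50.68% were above 0. In whole brain, more cells of a type and more RNA per cell cannot be told apart.

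**Figure D1:**
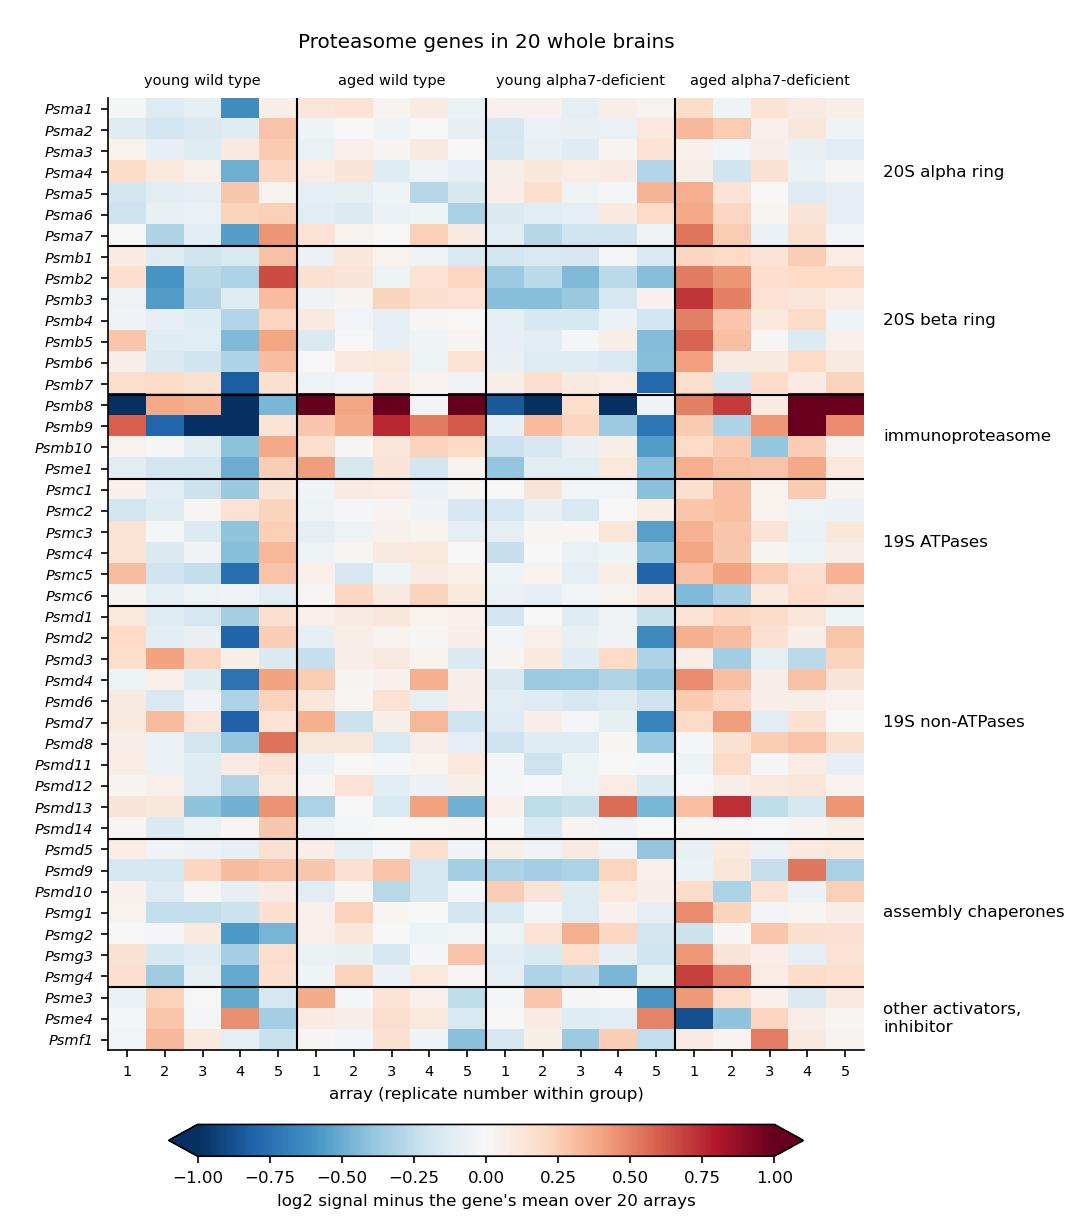
Heat map of the tested proteasome subunits and regulators and the dim Psmb8 (rows, grouped by role) on the 20 arrays (columns, 5 per group), with red for a log2 signal above and blue for one below the gene's mean over the arrays, and the deepest colours for deviations of 1 or more. Many standard subunits are red or blue together on single arrays: the median deviation of the 31 standard subunits was -0.31 on young wild-type replicate 4 and 0.28 on aged alpha7-deficient replicate 1.

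These counts depended on single arrays. Without the 2 arrays of highest actin ratio 4 genes were called, Psmb2, Psmb3, Psmd4 and Psmg4, and without the 3 arrays of distant animal numbers 14 were called. Of all genes tested, 7.2% and 9.84% were called higher in those 2 fits. Leaving out young wild-type replicate 3 or 4 left 6 calls, leaving out aged wild-type replicate 3 left 7, and leaving out young wild-type replicate 5 gave 20. The share of all genes called was not computed for these fits, so these counts cannot be set against it. Psmb2, Psmb3, Psmb6, Psmd4, Psmg4 and Psme1 kept their call in each of the 20 fits that left out 1 array.

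In the standard beta ring 4 of the 7 subunits were called higher with age, and all 7 had a change above 0. Psmb2, a non-catalytic beta subunit, read 10.01, 9.25, 9.57, 9.53 and 10.50 in the 5 young and 10.00, 9.97, 9.79, 9.98 and 10.05 in the 5 aged wild-type brains. It read 9.48, 9.58, 9.40, 9.57 and 9.42 in young and 10.36, 10.28, 10.01, 10.04 and 10.03 in aged alpha7-deficient brains. All aged alpha7-deficient brains lay above all young ones, while the aged wild-type values fell inside the young range. Averaged over genotypes, Psmb2 rose by 0.42 in log2 (1.34-fold, SE 0.108, limma adjusted p = 0.0104).

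Psmb3, also non-catalytic, read 10.13, 9.62, 9.89, 10.05 and 10.49 in young and 10.14, 10.21, 10.41, 10.34 and 10.33 in aged wild type. In alpha7-deficient mice it read 9.76, 9.75, 9.81, 10.02 and 10.23 at 8 weeks and 10.89, 10.68, 10.33, 10.30 and 10.26 at 2 years. The age groups overlapped in wild type. They were separate in alpha7-deficient mice, where the highest young brain (10.23) lay just under the lowest aged one (10.26). The averaged rise was 0.41 (1.33-fold, SE 0.0986, limma adjusted p = 0.00658), the smallest adjusted p of any proteasome gene. Its second probe set gave 0.53 (adjusted p = 0.00583 in a fit of all probe sets).

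Psmb6, the standard subunit with caspase-like activity, read 10.61, 10.39, 10.34, 10.23 and 10.85 in young and 10.54, 10.64, 10.65, 10.49 and 10.69 in aged wild type, and 10.46, 10.41, 10.41, 10.39 and 10.12 and 10.95, 10.63, 10.63, 10.74 and 10.63 in young and aged alpha7-deficient brains. Again only the alpha7-deficient age groups were separate. It rose by 0.24 (1.18-fold, SE 0.0708, limma adjusted p = 0.025), and by 0.17 with an adjusted p of 0.0791 without the 2 arrays of highest actin ratio. Psmb4, which helps to close the ring, rose by 0.20 (SE 0.0632, limma adjusted p = 0.0295). Leaving out young wild-type replicate 3 or 4, aged wild-type replicate 1 or aged alpha7-deficient replicate 1 ended the Psmb4 call (adjusted p up to 0.058), and its second probe set gave -0.03. Psmb1 changed by 0.15 (limma adjusted p = 0.0668), and a probe set of lower signal by -0.20.

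The other catalytic subunits did not pass. Psmb5, which carries the chymotrypsin-like activity, read 11.31, 10.91, 10.91, 10.59 and 11.42 in young and 10.89, 11.03, 10.95, 10.99 and 11.06 in aged wild type. The alpha7-deficient values were 10.95, 10.92, 11.01, 11.10 and 10.60 at 8 weeks and 11.61, 11.33, 11.04, 10.89 and 11.08 at 2 years. All groups overlapped, and the averaged difference was 0.12 (SE 0.0974, limma adjusted p = 0.443). Psmb7, with trypsin-like activity, averaged 11.64 ± 0.44 and 11.68 ± 0.05 in young and aged wild type, and 11.60 ± 0.39 and 11.78 ± 0.16 (SD, n = 5) in young and aged alpha7-deficient brains. Its wide young SD came from young wild-type replicate 4 (10.85) and young alpha7-deficient replicate 5 (10.90), the arrays of highest actin ratio. The Psmb7 difference was 0.11 (SE 0.121, limma adjusted p = 0.579) and turned to -0.08 without those arrays.

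In the alpha ring, which gates the entrance of the core, 1 of 7 subunits was called higher, 3 had a change above 0, and the median was -0.000583. Psma7 averaged 10.68 ± 0.37 and 10.88 ± 0.10 in young and aged wild type and 10.61 ± 0.10 and 10.95 ± 0.24 (SD, n = 5) in young and aged alpha7-deficient brains, with overlap in both genotypes. It rose by 0.27 (1.21-fold, SE 0.0941, limma adjusted p = 0.0488). That call was the least stable among the 11, since it was lost in 15 of the 20 fits without 1 array (adjusted p up to 0.0935). Psma1 (0.15), Psma2 (0.11), Psma3 (-0.000583), Psma4 (-0.02), Psma5 (-0.08) and Psma6 (-0.01) were not called.

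In the 19S regulator, 3 of the 11 non-ATPase subunits rose and 10 of 11 had a change above 0. Psmd4, a receptor that captures ubiquitin chains, read 10.23, 10.33, 10.16, 9.54 and 10.69 in young and 10.54, 10.31, 10.32, 10.64 and 10.34 in aged wild type. In alpha7-deficient mice it read 10.14, 9.92, 9.93, 9.98 and 9.90 at 8 weeks and 10.76, 10.58, 10.34, 10.57 and 10.41 at 2 years, with every aged brain above every young one. The rise was 0.40 (1.32-fold, SE 0.0981, limma adjusted p = 0.00808). Its other probe sets gave 0.46 and -0.32, and the mean over its probe sets gave 0.18 (adjusted p = 0.448).

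Psmd1, a scaffold of the base, rose by 0.19 (SE 0.0588, limma adjusted p = 0.0321), and Psmd6, a subunit of the lid, by 0.18 (SE 0.0587, limma adjusted p = 0.0391). Both are small differences, and leaving out 1 array ended the Psmd1 call in 8 and the Psmd6 call in 12 of 20 fits (adjusted p up to 0.0601 and 0.0727). The second probe set of Psmd6 gave -0.04. Psmd14, the deubiquitinase that removes the chain before entry, gave 0.01 (SE 0.0465, limma adjusted p = 0.873), with group means between 11.26 and 11.32. Psmd3 was the 1 non-ATPase below 0 (-0.12, adjusted p = 0.339).

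None of the 6 ATPases, which drive unfolding, was called, although all 6 had a change above 0 and 3 passed at an unadjusted p under 0.05. The largest was Psmc5 at 0.29 (SE 0.116, limma adjusted p = 0.0918), with means of 10.03 ± 0.44, 10.14 ± 0.10, 9.98 ± 0.36 and 10.44 ± 0.09 (SD, n = 5) in young and aged wild type and young and aged alpha7-deficient brains. Psmc5 on young alpha7-deficient replicate 5 read 9.34 against 10.05 to 10.21 on the others of its group. Probe sets of 1 gene disagreed here: the brighter Psmc4 probe set gave 0.18 and the dimmer one 0.68 (adjusted p = 0.00351 in the fit of all probe sets), and Psmc6 gave 0.06 and -0.35 (adjusted p = 0.028). For the chaperone Psmd9 a dimmer probe set gave 0.47 (adjusted p = 0.0294) against 0.05 for the brightest.

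Among the 7 assembly chaperones, Psmg4 rose and 6 of 7 had a change above 0. Psmg4, which helps to build the alpha ring, read 8.70, 8.17, 8.44, 8.02 and 8.69 in young and 8.49, 8.76, 8.47, 8.64 and 8.54 in aged wild type, and 8.44, 8.22, 8.27, 8.07 and 8.46 and 9.21, 9.02, 8.60, 8.71 and 8.70 in young and aged alpha7-deficient brains. The rise was 0.37 (1.29-fold, SE 0.096, limma adjusted p = 0.0119). Its partner Psmg3 gave 0.13 (adjusted p = 0.295), the pair Psmg1 and Psmg2 gave 0.17 and 0.09, and the chaperones of the 19S base, Psmd5, Psmd9 and Psmd10, gave 0.05, 0.05 and -0.07. None of these 6 was called. The alternative cap Psme3 of the nucleus (0.17, adjusted p = 0.269), the large activator Psme4 (-0.14, adjusted p = 0.448) and the inhibitor Psmf1 (0.08, adjusted p = 0.598) were not called either.

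Of the immunoproteasome transcripts Psmb8 and Psmb9 were dim, while Psmb10 and Psme1 lay well above the filter on low signals. Of the 3 tested genes Psme1 rose with age, Psmb10 did not pass, and Psmb9 is given as a description for the reason below. Psmb8 had a mean log2 signal of 5.38, under the filter of 5.45, so it was not in the tests above. It read 4.15, 5.75, 5.73, 3.77 and 4.93 in young and 6.58, 5.77, 6.41, 5.35 and 6.60 in aged wild type, and 4.54, 4.01, 5.55, 2.68 and 5.34 and 5.89, 6.08, 5.46, 6.40 and 6.59 in young and aged alpha7-deficient brains. Aged values lay mostly above young ones, with overlap in both genotypes. With the filter lowered to the 25th percentile the averaged difference was 1.47 in log2 (SE 0.337, limma adjusted p = 0.00594), and with no filter the adjusted p was 0.00744. In that lower filter the difference was 1.28 in wild type (adjusted p = 0.267) and 1.66 in alpha7-deficient mice (adjusted p = 0.0264).

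Psmb9 read 6.09, 4.70, 3.65, 3.57 and 5.63 in young and 5.77, 5.86, 6.25, 6.01 and 6.11 in aged wild type. In alpha7-deficient mice it read 5.41, 5.81, 5.71, 5.13 and 4.77 and 5.75, 5.19, 5.93, 6.56 and 5.97. The aged wild-type brains were tightly grouped, and young wild-type replicate 1 was as high as they were. Its mean log2 signal of 5.49 passed the filter of 5.45 only through the aged groups (6.00 in wild type and 5.88 in alpha7-deficient brains), since both young means lay under it (4.73 and 5.37), so its call is no support for a rise. The averaged difference of Psmb9 was 0.89 (SE 0.281, limma adjusted p = 0.0322). Leaving out any of 5 arrays ended the call (aged wild-type replicate 3, young wild-type replicates 3 and 4, and in alpha7-deficient mice young replicate 5 and aged replicate 4, adjusted p 0.0542 to 0.0629), and without the 2 arrays of highest actin ratio the difference was 0.67 (adjusted p = 0.103). Several young values of Psmb8 and Psmb9 lie under the filter level, where a log2 signal is least precise.

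Psme1, a subunit of the PA28 cap, was brighter and steadier. It read 8.53, 8.46, 8.46, 8.14 and 8.88 in young and 9.06, 8.48, 8.77, 8.45 and 8.68 in aged wild type, and 8.26, 8.52, 8.53, 8.75 and 8.23 and 9.01, 8.94, 8.92, 9.02 and 8.75 in young and aged alpha7-deficient brains. The lowest aged and the highest young alpha7-deficient brain met at 8.75. Psme1 rose by 0.33 (1.26-fold, SE 0.0941, limma adjusted p = 0.0184), or by 0.26 with an adjusted p of 0.0595 without the 2 arrays of highest actin ratio. Psmb10 averaged 9.05 ± 0.28 and 9.21 ± 0.08 in young and aged wild type and 8.88 ± 0.23 and 9.14 ± 0.27 (SD, n = 5) in young and aged alpha7-deficient brains, a difference of 0.22 that did not pass (SE 0.0972, limma adjusted p = 0.128).

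**Figure D2:**
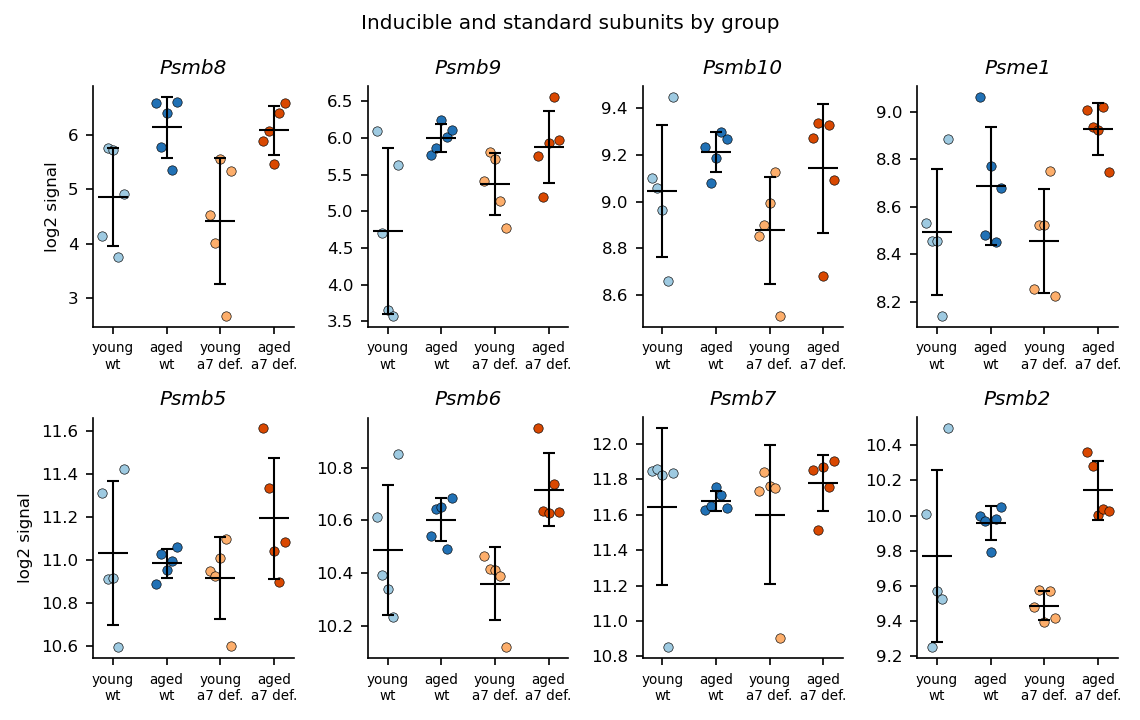
Log2 signal of inducible and standard proteasome genes in the 4 groups (wt, wild type; a7 def., alpha7-deficient), with a point for each of 5 arrays and a line at the mean with SD bars and an axis of its own in each panel. Group means of Psmb8 run from 4.42 to 6.14 with wide young groups, and the aged wild-type arrays of Psmb5, Psmb6 and Psmb7 are tightly grouped (SD 0.07, 0.08 and 0.05).

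Whether the inducible subunits gained on the standard ones they replace was tested directly on the log2 ratio within each array, with a two-sided exact permutation test of 5 aged against 5 young arrays (smallest possible p 0.00794) and adjustment over the 6 tests. The level of such a ratio compares different probe sets and has no meaning of its own, so only its change is read. None of the 6 changes passed after adjustment. Psmb8 to Psmb5 moved from -6.16 ± 0.94 to -4.84 ± 0.58 (SD, n = 5) in wild type, by 1.32 (exact permutation p = 0.0476, adjusted 0.143), and from -6.49 ± 1.27 to -5.11 ± 0.59 in alpha7-deficient brains, by 1.38 (exact permutation p = 0.0714, adjusted 0.143). Psmb9 to Psmb6 moved by 1.15 in wild type (exact permutation p = 0.0317, adjusted 0.143) and by 0.16 in alpha7-deficient brains (exact permutation p = 0.571, adjusted 0.675). Without young wild-type replicate 1 the wild-type change of Psmb9 to Psmb6 was 1.46 with an adjusted exact permutation p of 0.0476. Of the 10 fits that left out 1 wild-type array, the other 9 did not pass (adjusted exact permutation p up to 0.159). Psmb10 to Psmb7 moved by 0.13 and 0.08 (exact permutation p = 0.357 and 0.675), so no shift of that pair was detectable with 5 arrays a group.

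**Figure D3:**
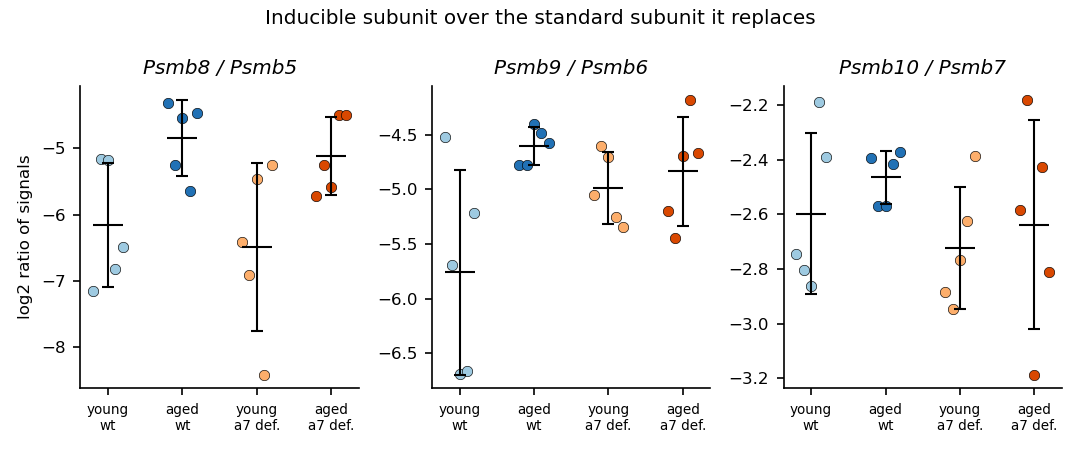
Log2 ratio of each inducible subunit to the standard subunit it replaces, by group, with a point for each of 5 arrays and a line at the mean with SD bars. The Psmb8 to Psmb5 ratio has means of -6.16 and -4.84 in young and aged wild type, and the group means of the Psmb10 to Psmb7 ratio lie between -2.72 and -2.46.

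Split by genotype, proteasome genes were called with age in alpha7-deficient mice and not in wild type, where few genes of any kind were called. The difference between the 2 age effects passed for no gene. In wild type, 0 of 46 proteasome genes were called in either direction by limma, 2 passed at an unadjusted p under 0.05, and 21 of the 31 standard subunits had a change above 0 (median 0.057). Among all genes 0.485% were called higher and 0.284% lower there, and 1714 of 13389 passed at an unadjusted p under 0.05. In alpha7-deficient mice 9 proteasome genes rose (Psmb1, Psmb2, Psmb3, Psmb4, Psmb6, Psmd4, Psmd6, Psme1 and Psmg4) and 0 fell, against 7.82% of all genes higher and 6.87% lower. There 27 of the 31 standard subunits were above 0 (median 0.257). The larger members were Psmb2 (0.65, 1.57-fold, SE 0.152, limma adjusted p = 0.00778), Psmb3 (0.58, adjusted p = 0.00959), Psmg4 (0.56, adjusted p = 0.0101) and Psmd4 (0.56, adjusted p = 0.0112). Without the 3 arrays of distant animal numbers 6 were called in alpha7-deficient mice: Psmb1, Psmb2, Psmb3, Psmb6 and Psmd4, with Psmd8 added. In that fit 4.05% of all genes were called higher. Psmb4, Psmd6, Psme1 and Psmg4 were then no longer called, Psmg4 with a difference of 0.38 (limma adjusted p = 0.0799). Without the 2 arrays of highest actin ratio 10 were called, where 7.66% of all genes were called higher. In wild type Psmb2 gave 0.19, Psmb3 0.25, Psmg4 0.18 and Psmd4 0.24, and none of these passed. When 1 array was left out they ranged from 0.0557 to 0.367 for Psmb2, from 0.147 to 0.363 for Psmb3, from 0.0797 to 0.251 for Psmg4 and from 0.0777 to 0.364 for Psmd4.

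**Figure D4:**
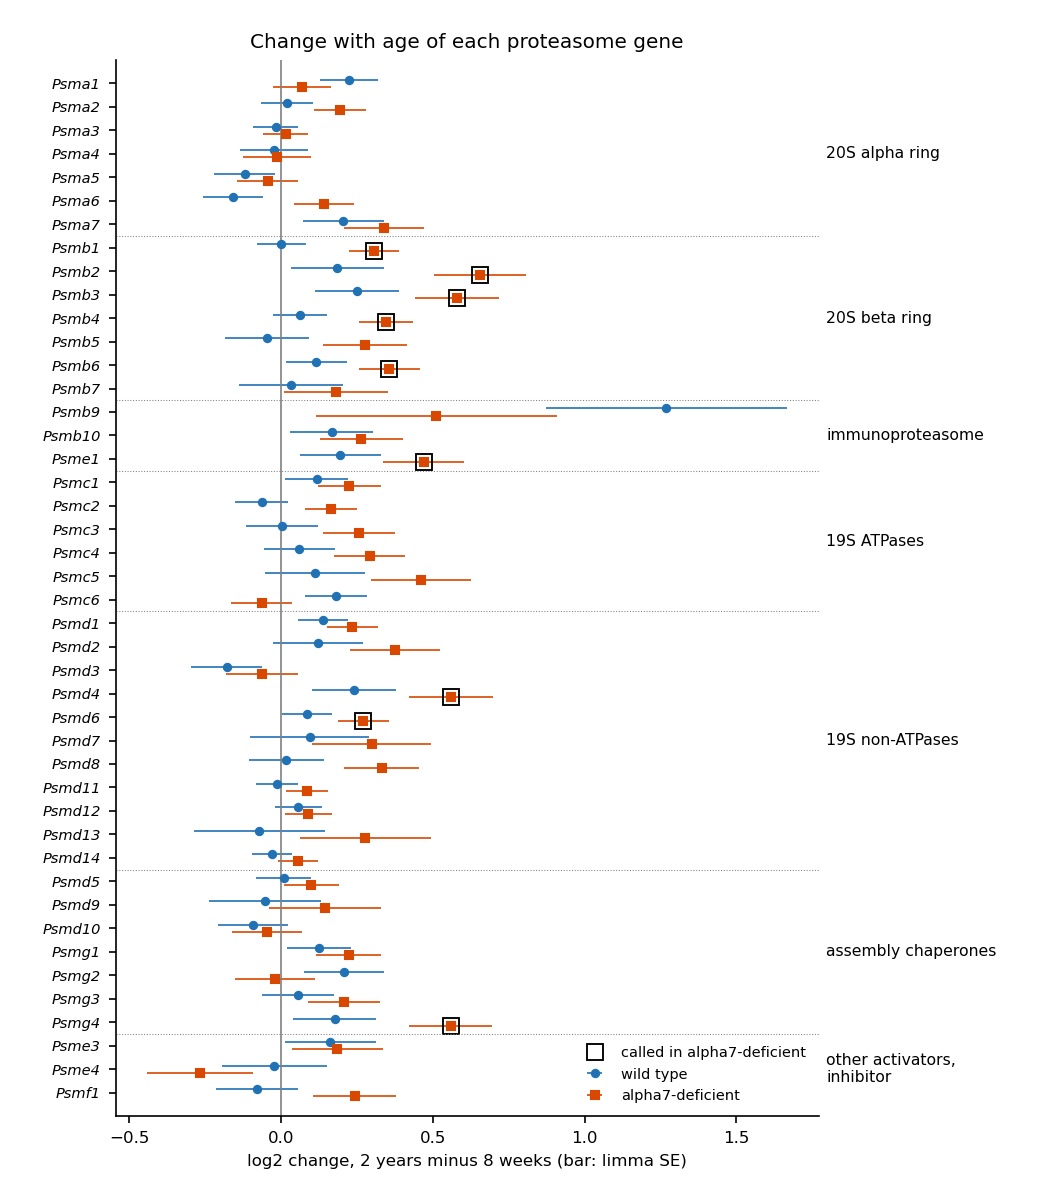
Log2 change from 8 weeks to 2 years of each tested proteasome gene (rows, by role) in wild type (circles) and alpha7-deficient mice (squares), with limma SE as bars and outlined squares for the 9 genes called in alpha7-deficient mice. Most squares lie right of the circles, with medians over the standard subunits of 0.257 and 0.057.

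Genes whose 5 aged arrays all lay above the 5 young ones give a plain view of the same split. None of the tested proteasome genes was separated this way in wild type, where 1.58% of all genes were, and 10 were in alpha7-deficient mice, where 7.3% of all genes were. These were Psmb1, Psmb2, Psmb3, Psmb4, Psmb6, Psmc5, Psmd2, Psmd4, Psmd6 and Psmg4, of which 9 are standard subunits. Psme1 and Psmb9 were not among them.

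Tested directly, the age effect in alpha7-deficient minus that in wild type was called for 0 of 46 proteasome genes and for 0% of all genes, with 4 of 46 at an unadjusted p under 0.05 (Psma6, Psmb1, Psmb2 and Psmb4) and a smallest adjusted p of 0.605 in limma. For the standard subunits 29 of 31 differences were above 0, with a median of 0.204. Psmb9 ran the other way at -0.76 (adjusted p = 0.698): its age change was 1.27 in wild type (SE 0.397, limma adjusted p = 0.156) and 0.51 in alpha7-deficient mice (adjusted p = 0.406). The split also rests on few arrays. Without the 2 arrays of highest actin ratio, the wild-type median of the standard subunits was -0.0285, with 13 of 31 above 0, and the alpha7-deficient median was 0.197, with 28 above 0. The wild-type median was the same when young wild-type replicate 4 alone was left out. Without the 3 arrays of distant animal numbers it was 0.131, with 27 of 31 above 0, against 0.167 in alpha7-deficient mice, with 28 above 0. Without all 5 arrays that stand apart, the wild-type median of the standard subunits was 0.0543 with 1 call, and the alpha7-deficient median was 0.0875 with 7 calls. Among all genes 0.978% and 6.01% were called higher in those 2 comparisons.

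The missing receptor subunit alone left proteasome transcripts without a called difference. Averaged over ages, at 8 weeks and at 2 years, limma called 0 of 46 proteasome genes, with 1, 1 and 3 at an unadjusted p under 0.05, and 0.00747% of all genes in each comparison, which is Chrna7 in the average (-3.08, SE 0.127, adjusted p = 2.22e-13). At the unadjusted threshold 469, 695 and 777 of all 13389 genes tested passed. The median difference of the standard subunits, alpha7-deficient minus wild type, was -0.0645 at 8 weeks, where 25 of 31 were below 0, and 0.114 at 2 years, where 28 of 31 were above 0. Both rest on few arrays: leaving out 1 array moved the 8-week median between -0.137 (without young wild-type replicate 4) and 0.00373 (without young wild-type replicate 5), and the 2-year median was 0.0449 without the 3 arrays of distant animal numbers. The proteasome gene at an unadjusted p under 0.05 in the average was Psma5, at 0.15 (adjusted p = 0.999).

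Standard subunits varied together from brain to brain. Over the deviations of the 20 arrays from their group means, which share scaling and RNA quality, the median Pearson correlation among the 465 pairs of standard subunits was 0.44 and 79.35% of pairs were positive, against a median of -0.0013 for all pairs of genes tested. Psmb10, Psme1 and Psmb9 had median correlations of 0.57, 0.51 and 0.47 with the standard subunits. Psmc6 (-0.30), Psma5 (-0.16) and Psmd3 (-0.13) were the 3 standard subunits with negative medians. Without the 5 arrays that stand apart the median was 0.19, with 67.96% of pairs positive.

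Those arrays hold the extremes of the standard-subunit level, taken as the median deviation over the 31 genes. By group this level averaged -0.05 ± 0.21, 0.01 ± 0.03, -0.10 ± 0.08 and 0.15 ± 0.10 (SD, n = 5) in young and aged wild type and young and aged alpha7-deficient brains. The 2 lowest arrays were young wild-type replicate 4 (-0.31) and young alpha7-deficient replicate 5 (-0.23), those of highest actin ratio. The 3 highest were replicates 1 (0.28) and 2 (0.21) of the aged alpha7-deficient group and replicate 5 of the young wild-type group (0.24), those of distant animal numbers, which also had endothelial marker levels of -1.23, -0.82 and -1.09 in log2 against at least -0.18 on the other arrays. With the actin ratio as a covariate, 7 proteasome genes were called with age averaged over genotypes, 5 of them standard subunits, and the median of the standard subunits was 0.105. In that fit 8.93% of all genes were called higher. The part of animal number and cell mixture in the proteasome differences was not tested beyond leaving these arrays out.

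**Figure D5:**
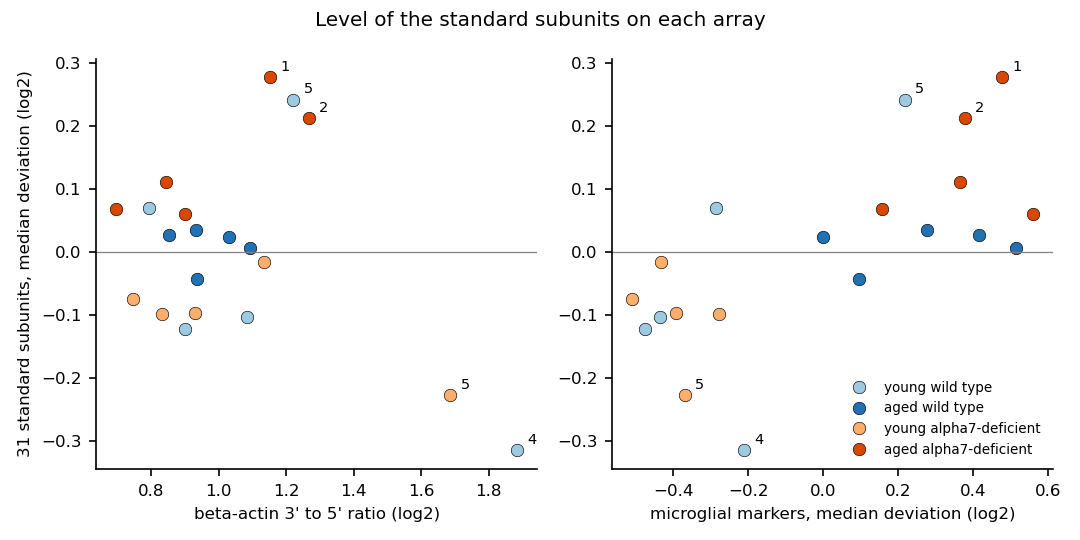
Median deviation of the 31 standard subunits on each of the 20 arrays (vertical axis, log2) against the log2 beta-actin 3' to 5' ratio (left) and the median deviation of the microglial markers (right) of the same array, coloured by group, with replicate numbers at the 5 arrays that stand apart. The arrays at -0.31 and -0.23 have the highest actin 3' to 5' ratios, 1.88 and 1.69.

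Genes that work beside the proteasome were called in both directions. Of 22 tested partners and regulators 3 rose and 2 fell with age averaged over genotypes (median -0.00211), near the shares among all genes tested (9.12% higher and 8.42% lower). Those that rose were Fbxo7, an F-box protein that binds the inhibitor Psmf1 (0.29, adjusted p = 0.0111), Nfe2l2, the antioxidant transcription factor NRF2 (0.33, adjusted p = 0.0132), and Pomp, the maturation factor of the core (0.26, limma adjusted p = 0.0148). Usp14, a deubiquitinase on the 19S regulator (-0.25, adjusted p = 0.0228), and Txnl1, a thioredoxin-like protein bound to it (-0.19, adjusted p = 0.0288), fell. Nfe2l1, the factor that restores proteasome genes when the proteasome is blocked, gave 0.19 (adjusted p = 0.206). Of 9 genes of ubiquitin and its activation, the ligase Stub1 rose (0.35, adjusted p = 0.0222) and the activating enzyme Uba6 (-0.24, adjusted p = 0.0333) and the conjugating enzyme Ube2r2 (-0.20, adjusted p = 0.0337) fell.

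For the counts that follow, 9.12% of all genes tested were called higher with age averaged over genotypes and 8.42% lower. Downstream of the immunoproteasome, 6 of 11 tested genes of class I antigen presentation rose with age and 0 fell (median 0.474). They included the light chain B2m (0.86, limma adjusted p = 2.99e-06), the heavy chains H2-K1 (1.02, adjusted p = 9.9e-05) and H2-D1 (0.91, adjusted p = 0.00129), and the peptide transporter genes Tap1 (0.63, adjusted p = 0.0104) and Tap2 (1.16, adjusted p = 0.0122), the chromosomal neighbours of Psmb8 and Psmb9. Of 13 genes of interferon signalling 5 rose and 0 fell (median 0.258), among them the receptor chain Ifnar2 (0.48, adjusted p = 0.000171) and the transcription factors Irf7 (0.61, adjusted p = 0.0076) and Irf1 (0.38, adjusted p = 0.0136).

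Part of the markers of microglia, the brain cells best known for the immunoproteasome, also rose with age. Of 11 tested microglial markers 6 rose and 0 fell (median 0.743), led by Tyrobp (1.26), Ctss (0.85) and C1qc (1.22), with adjusted p of 5.12e-06, 6.11e-06 and 3.28e-05 in limma. The homeostatic markers Cx3cr1 (0.25), P2ry12 (-0.08), Tmem119 (0.08), Csf1r (0.12) and Siglech (-0.02) did not pass. The median microglial deviation ran from -0.48 to 0.22 in young and 0.00 to 0.51 in aged wild type, and from -0.51 to -0.28 in young and 0.16 to 0.56 in aged alpha7-deficient brains. Blood genes rose too (3 of 3 tested), as did 3 of 8 astrocyte markers. The median blood deviation was 2.90 on aged wild-type replicate 4 and 3.44 and 3.51 on aged alpha7-deficient replicates 4 and 5, while aged alpha7-deficient replicates 1 to 3 (-0.87, -0.22 and -0.35) lay inside the young range of -1.75 to -0.14. Of 9 neuronal markers 1 was called higher, near the 9.12% of all genes. Among 7 oligodendrocyte markers 1 rose and 2 fell, and 0 of 6 endothelial and 0 of 2 T-cell markers were called. The part of these cell types in the proteasome differences was not tested.

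The remaining genes of the family gave little. Psma8, a core subunit known from testis, and Psmb11, known from the thymic cortex, had mean log2 signals of 3.86 and 3.32, far under the filter, and no detection calls were used. The near-namesakes Psmc3ip, a protein of meiotic recombination, and Psme3ip1, a binding partner of Psme3, gave age differences of -0.19 (adjusted p = 0.454) and 0.04 (adjusted p = 0.74).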

How the data were processed

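Brain RNA from 20 mice was hybridised to Affymetrix arrays, 1 brain each. The authors deposited 1 linear intensity for each probe set, computed by MAS5 (per the submitters' processing notes), and each array's mean after trimming 2% at each end was 250. The sources used here name no MAS5 version or filter. Groups came from the labels, and replicate numbers, in accession order, only name an array and pair nothing. Intensity was taken to log2 with no constant added. No detection calls were used, and the number of arrays limits the precision.

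Probe sets with 1 gene symbol and a mean log2 of at least 5.45 (the 40th percentile of non-control probe sets, a signal of 43.6) were kept, and the brightest stood for its gene. For 13389 genes, 4 group means were fitted in limma 3.58.1 (R 4.3.3) with an intensity trend, giving 7 comparisons adjusted over all genes by Benjamini-Hochberg and called at an adjusted p under 0.05. Changes are 2 years minus 8 weeks, or alpha7-deficient minus wild type. The fit was tested on simulated data for age averaged over genotypes. It recovered 32% of planted 1.2-fold and 84% of 1.5-fold changes, and 3.73% of its calls were false. Only 50 genes were changed at each fold, on independent normal noise. The real fit called 1221 genes higher and 1127 lower, and its subunits varied together, so these shares do not carry over to it. Changes of the size reported here may go uncalled, at a rate that the simulation does not give. Pairs of catalytic subunits were tested by exact permutation. The members, their roles and the other gene lists were chosen with earlier results of these data known. The named genes were all inducible and catalytic subunits, up to 3 called genes in each other role plus those called in another comparison, or else the 1 of smallest adjusted p, and up to 3 called genes from each other list. Others were named after their values were seen. Arrays left out for actin ratio, that ratio as a covariate, and the 5 arrays left out together were alternatives added after the values were seen. Promoters are from RefSeq (GRCm38.p6).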

Additional observations from a re-analysis of the deposited data

Results flagged for a closer look

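Single arrays stood far from the other 4 of their group in 5 of the 88 groups of 5 checked, with a gap to the nearest array above Dixon's critical share of the range, as chance gives in about 1 group in 20. Psmb7 was low on young wild-type replicate 4 (10.85, others 11.825 to 11.86) and on young alpha7-deficient replicate 5 (10.901, others 11.737 to 11.844). That second array was also low for Psmb6 (10.119, others 10.391 to 10.464) and Psmc5 (9.3433, others 10.051 to 10.207). Psmb1 was high on young alpha7-deficient replicate 4 (11.214, others 11.042 to 11.077). Young wild-type replicate 4 and young alpha7-deficient replicate 5 had the highest actin 3' to 5' ratios, 1.88 and 1.69, and the part of RNA quality in these values was not tested.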

How the results depend on the processing

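None of 15 alternatives called a proteasome gene lower with age averaged over genotypes, different between genotypes averaged over ages, or different in its age effect. With age in wild type at most 1 was called (Psmb9 with array weights, Psmb3 without the 5 arrays that stand apart). Called higher with age averaged over genotypes, main counts 8 standard subunits and 11 members: the mean of a gene's probe sets gave 5 standard subunits, no intensity trend 4 and 7, array weights 13 and 17, leaving out the 2 arrays of highest actin ratio 3 and 4, and the actin ratio as a covariate 5 and 7. Among all genes 9.12% were called higher in the main fit. In those alternatives, in the order given, the shares were 7.51%, 7.89%, 13.9%, 7.2% and 8.93%. Leaving out 1 array gave 4 to 15 standard subunits and 6 to 20 members. No share of all genes was computed for any fit that left out 1 array. In alpha7-deficient mice, main counts 7 and 9, the mean of probe sets gave 4 standard subunits, array weights 12 and 14, and fitting the groups compared alone 12 and 14, and leaving out 1 array 5 to 13 and 6 to 15. Among all genes in alpha7-deficient mice, 7.82% were called higher in the main fit. With the mean of probe sets, array weights and the groups compared alone the shares were 6.23%, 10.7% and 8.21%. Without the 5 arrays 1 standard subunit was called in wild type, and the alpha7-deficient median was 0.08754 instead of 0.257. The median averaged over genotypes stayed above 0 under quantile normalization (0.132) and median centring (0.139).

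The age difference in wild type changed sign for Psmb1 under median centring (-0.02111), the mean of probe sets (-0.1664), unshared probe sets (-0.1416), without the 2 actin arrays (-0.03234) and with the actin covariate (-0.006235). It did so for Psmb4 with the mean of probe sets (-0.08551), for Psmb5 without the 3 distant arrays (0.05255), and for Psmc5 without the 2 actin arrays (-0.04679) and with the covariate (-0.01636). For Psmb7 it did so under array weights (-0.07685), Xist as a covariate (-0.02373), without the 2 actin arrays (-0.1647), with the covariate (-0.1469) and without the 5 arrays (-0.1663). Averaged over genotypes, signs changed for Psmb1 with the mean of probe sets (-0.07123) and unshared probe sets (-0.204, and -0.2664 in alpha7-deficient mice). They changed for Psmb7 with array weights (-0.004046), without the 2 actin arrays (-0.07957), with the covariate (-0.02423) and without the 5 arrays (-0.04875), where Psmb5 (-0.0251) and Psme3 (-0.02867) changed too. None of these values passed the test, and the cause was not tested.

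Leaving out 1 array, wild-type differences ranged from -0.1549 to 0.05255 for Psmb5, -0.1647 to 0.08765 for Psmb7, -0.04298 to 0.07818 for Psmb1 and -0.04679 to 0.218 for Psmc5. The Psmb9 to Psmb6 ratio ranged from 0.9197 to 1.464 in wild type and -0.008497 to 0.3082 in alpha7-deficient mice. The Psmb10 to Psmb7 ratio in alpha7-deficient mice ranged from -0.02987 to 0.2212, and was -0.08625 without the 3 distant arrays. No paired analysis was made, because each array is from a different mouse and the labels pair no animals.

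Limits are the 5 arrays a group, dim Psmb8 and Psmb9, probe sets of 1 gene that disagree, and the arrays that stand apart, whose part in the results was tested only by leaving them out, by the actin covariate and by array weights.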
